A study of Homo sapiens with 8 samples.

Results

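The genes described are 10 that set how calcium is stored in and cleared around the sarcoplasmic reticulum of muscle: the pumps ATP2A1, ATP2A2, ATP2A3, ATP2B1 and ATP2B4, the small pump regulators MRLN and SLN, the calcium-binding proteins CASQ1 and CASQ2, and ASPH. They were taken as a named set, matched by Ensembl gene identifier, and are 10 of the 58302 genes in the count files. RNA was sequenced from RD cells, an established human line from a rhabdomyosarcoma, which is a tumour with skeletal muscle features, in 4 libraries that carried a short hairpin RNA against the homeobox transcription factor PROX1 (shPROX1) and 4 that carried a scrambled hairpin (control). All 8 libraries came from total RNA of this 1 line, grown in the same medium, and the labels give no time, dose or passage. The series title calls PROX1 a regulator of stemness and growth in this tumour, so the comparison asks which transcripts differ once PROX1 is silenced.

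In muscle, calcium released from the sarcoplasmic reticulum starts contraction, and SERCA pumps (the products of the ATP2A genes) use ATP to return it and so allow relaxation. Micropeptides of the membrane, such as myoregulin and sarcolipin, bind these pumps and lower their activity. Calsequestrin holds calcium inside the store near the release channels, whereas PMCA pumps (ATP2B genes) carry calcium out of the cell across the plasma membrane.

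PROX1 itself had 33, 42, 34 and 35 counts in the shPROX1 libraries, against 85, 66, 69 and 105 in the control libraries. Its level in CPM (the count divided by the library total and scaled to 1e6 counts) averaged 8.79 ± 1.15 in shPROX1 and 18.6 ± 2.58 in control (SD, n = 4 each), and it fell by 1.07 on the log2 scale (edgeR quasi-likelihood test, adjusted p = 4.89e-06). Libraries held 3747090 to 4301987 counts in shPROX1 and 4055205 to 4865161 in control, so 3 counts, the most that a count of 0 allows, are 0.617 to 0.801 CPM (counting error only). A principal component analysis of 500 genes put 67.7% of the variance on its leading axis, where all shPROX1 libraries lay on 1 side and all control libraries on the other, and 13.2% on the next, where control replicate 1 stood apart, with a score of 13.1 against -6.19 to 3.12 for the other 7. Without that library every tested member kept its direction and its side of the threshold. Muscle identity was checked with 12 marker genes, which all passed the filter on low counts: MYOD1, the myogenic master regulator, averaged 72.2 ± 4.49 CPM in shPROX1 and 71.2 ± 7.72 CPM in control, and the filament gene DES 473 ± 21.0 and 545 ± 16.4 CPM (SD, n = 4 each). Their summed level was 1979 to 2156 CPM in shPROX1 and 2391 to 2655 CPM in control. Of the 12, 9 were lower in shPROX1 (75%, against 17.9% lower among all tested genes). The 1 that was higher was TNNT2 (log2 change 0.48 ± 0.06, edgeR adjusted p = 1.45e-06). MYOG, the factor of terminal differentiation, fell by 1.32 on the log2 scale (edgeR adjusted p = 1.65e-13). The part that this lower muscle-marker level has in the member values below was not tested. Blood markers summed to 0.931 to 2.4 CPM in shPROX1 and 1.03 to 1.65 CPM in control, with CD3E and HBB at 0 counts. Of 6 endothelial markers only TEK passed the filter (CDH5 had 0 counts), and the 6 sum to 41.1 to 46 CPM in shPROX1 and 39.4 to 53.2 CPM in control. Of 6 cardiac markers only NKX2-5 passed (12.1 to 17.1 CPM for the 6 in shPROX1, 11.9 to 16.5 CPM in control, NPPA and MYL7 at 0 counts). Adipocyte markers stayed at 0.465 to 0.931 CPM in shPROX1 and 0.471 to 0.617 CPM in control. Epithelial markers summed to 264 to 290 CPM in shPROX1 and 181 to 213 CPM in control, nearly all of it KRT18. Of 3 tested epithelial markers 2 rose, KRT18 (log2 change 0.47 ± 0.06) and CLDN4 (0.76 ± 0.22, edgeR adjusted p = 0.00957), KRT8 did not pass (0.31 ± 0.17), and EPCAM had 1 and 0 counts over the 4 libraries of each group. Smooth muscle markers summed to 30.5 to 33.3 CPM in shPROX1 and 22.8 to 28.3 CPM in control, with MYOCD at 0 counts, and of 2 tested SMTN rose (log2 change 0.38 ± 0.11, edgeR adjusted p = 0.00739) and CNN1 did not pass (0.32 ± 0.30).

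In shPROX1 the main SERCA genes changed in opposite directions. The fast-muscle pump gene ATP2A1 fell 2.42-fold and the pump inhibitor gene MRLN 1.67-fold, whereas the widely expressed pump gene ATP2A2 rose 1.23-fold and ASPH 1.3-fold. The plasma membrane pumps ATP2B1 and ATP2B4 and the third SERCA gene ATP2A3 did not pass the test, and SLN, CASQ1 and CASQ2 were too low to be tested. So 2 of the 7 tested members were higher and 2 lower, against 17.3% higher and 17.9% lower (35.2% in either direction) among all 12392 tested genes, and 5 of the 7 had groups that did not overlap in CPM, against 32.3% of all tested genes. The median log2 change of the 7 was -0.08, and that of all tested genes -0.01. The median size among all called genes was 0.379 on the log2 scale, so the change of ATP2A1 and of MRLN was above it and that of ATP2A2 below. Since these are bulk libraries, fewer cells that express a gene and less RNA of it per cell cannot be told apart.

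**Figure D1:**
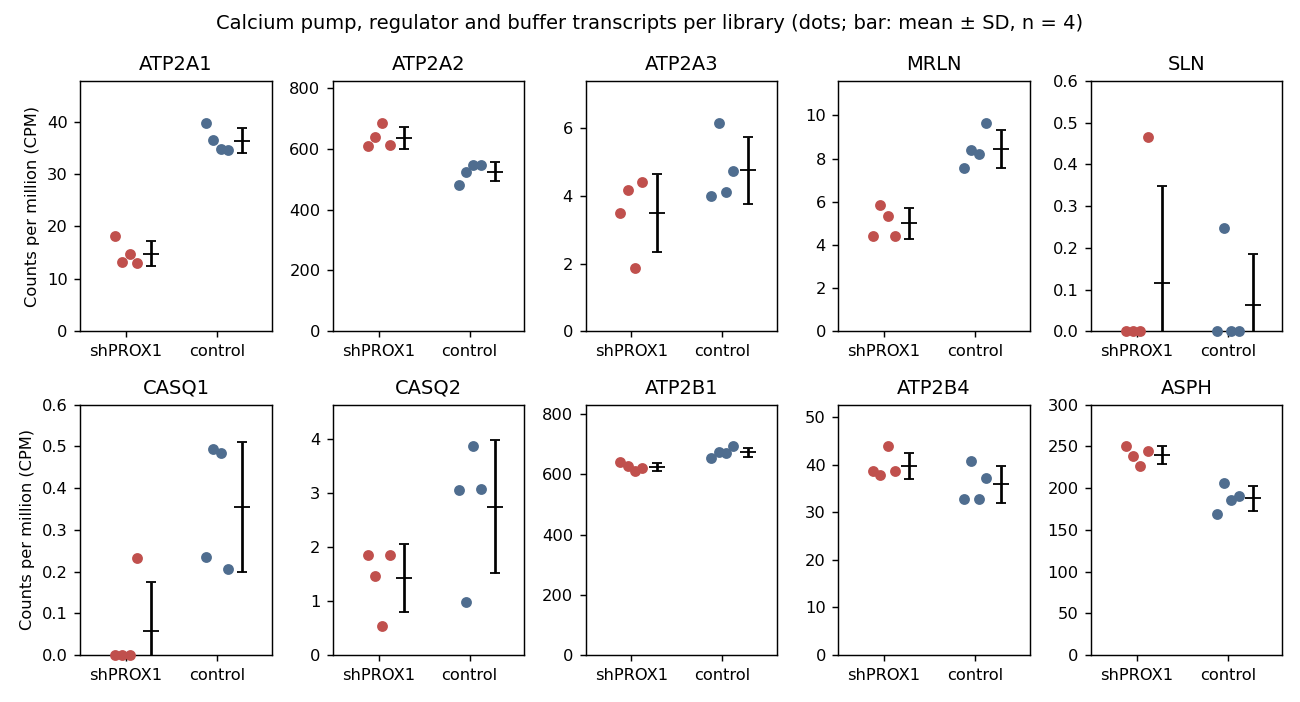
Level of each of the 10 members in CPM (vertical axis, linear, from 0 in each panel) in the 4 shPROX1 (red dots, left) and 4 control libraries (blue dots, right), with mean ± SD. The groups are apart for ATP2A1, ATP2A2, MRLN, ATP2B1 and ASPH, and SLN and CASQ1 lie at or under 0.493 CPM in all libraries.

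Sequences before a transcript start of 3 called genes are shown because 2 fell together and the third, a close relative of the first, rose. Each is the RefSeq window (GRCh38.p14) of 250 bases before and 50 bases from the transcript start, 5′ to 3′ on the gene's strand, and 7 members have 10 such windows. Capitals mark E-boxes (CANNTG, the general binding sequence of myogenic bHLH factors).
ATP2A1, chr16:28878238-28878537, plus strand: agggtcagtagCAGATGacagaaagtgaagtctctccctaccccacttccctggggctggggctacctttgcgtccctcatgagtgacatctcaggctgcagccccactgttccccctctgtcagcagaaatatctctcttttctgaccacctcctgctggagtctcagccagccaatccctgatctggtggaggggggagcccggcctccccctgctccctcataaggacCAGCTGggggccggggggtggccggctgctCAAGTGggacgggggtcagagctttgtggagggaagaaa
MRLN, chr10:59753406-59753705, minus strand: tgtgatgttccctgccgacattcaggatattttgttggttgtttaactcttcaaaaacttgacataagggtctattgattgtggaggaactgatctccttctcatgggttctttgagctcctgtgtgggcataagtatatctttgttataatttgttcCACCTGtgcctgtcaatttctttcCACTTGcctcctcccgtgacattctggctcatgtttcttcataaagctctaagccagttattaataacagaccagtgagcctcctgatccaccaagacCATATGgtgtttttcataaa
ATP2A2, chr12:110280997-110281296, plus strand: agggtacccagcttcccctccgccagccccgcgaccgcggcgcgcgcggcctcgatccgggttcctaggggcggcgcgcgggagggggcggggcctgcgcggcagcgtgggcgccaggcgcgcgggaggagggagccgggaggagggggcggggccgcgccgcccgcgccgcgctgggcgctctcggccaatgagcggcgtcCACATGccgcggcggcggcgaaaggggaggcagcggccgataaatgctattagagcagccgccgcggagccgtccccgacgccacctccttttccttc
Counting the start base as 0, the ATP2A1 window held E-boxes from -239, -19 and 11, of which the 1 at -19 read CAGCTG. The MRLN window held them from -92, -68 and 30, and the 1 at -92 read CACCTG, which is CAGGTG on the other strand. This ATP2A2 window held 1, from -48, and a further ATP2A2 window also held 1. The second ATP2A1 window, at an internal start, held 0. The printed MRLN and ATP2A2 windows also lie wholly inside the annotated genes (59736692 to 59756041 and 110280756 to 110351093). Among 35116 RefSeq windows of this length, 68.7% held CANNTG, 17.9% CAGCTG and 20.6% CAGGTG (both strands searched, CANNTG includes the other 2). The MEF2 consensus was in 0.572% of all windows and in 0 of the 10 windows of the members. These are matches of letters only, and 68.7% of all windows have at least 1.

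ATP2A1 encodes SERCA1, the calcium pump of fast-twitch fibres (ENSG00000196296, plus strand of chromosome 16, 28878405 to 28904509, GRCh38). Its level was 18.2, 13.2, 14.7 and 13 CPM in the shPROX1 libraries, against 39.8, 36.5, 34.8 and 34.5 CPM in the control libraries. Each shPROX1 library lay below each control library, and shPROX1 replicate 1 was the highest of its group. The mean was 14.8 ± 2.38 CPM in shPROX1 and 36.4 ± 2.42 CPM in control (SD, n = 4 each), a log2 change of -1.27 ± 0.11 (SE; 95% interval -1.51 to -1.04; edgeR adjusted p = 6.85e-09). The gene shares 5.36% of its exon bases with the antisense gene ATP2A1-AS1, which had 16 counts over the shPROX1 and 25 over the control libraries, and 1.94% with RABEP2. ATP2A1 itself had 243 and 629 counts over the same libraries, and how far reads are shared between these genes was not tested.

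ATP2A2 encodes SERCA2, whose isoforms serve slow-twitch and cardiac muscle and, in another splice form, nearly all other cells; counts per gene do not separate the forms (ENSG00000174437, plus strand of chromosome 12, 110280756 to 110351093). It had 609, 638, 686 and 613 CPM in the shPROX1 libraries, against 480, 523, 546 and 548 CPM in the control libraries. The lowest shPROX1 library was above the highest control library, and control replicate 1 was the lowest of all 8. The means were 637 ± 35.5 CPM in shPROX1 and 524 ± 31.7 CPM in control (SD, n = 4 each), and ATP2A2 rose by a log2 change of 0.30 ± 0.05 (95% interval 0.20 to 0.40; edgeR adjusted p = 2.88e-05). Without control replicate 1 it was 0.27 ± 0.04.

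ATP2A3, a SERCA gene known mainly from blood, endothelial and epithelial cells, was near the low end (chromosome 17, minus strand, 3923870 to 3964464). Counts were 15, 17, 7 and 19 in the shPROX1 libraries and 17, 25, 17 and 23 in the control libraries, or 3.48 ± 1.15 and 4.75 ± 0.994 CPM (SD, n = 4 each). The groups overlapped. Its log2 change of -0.40 ± 0.26 did not pass the test (edgeR adjusted p = 0.248), and the 95% interval of -0.94 to 0.14 reaches past the change of MRLN.

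Per kb of annotated exon, which allows levels of different genes to be set side by side, the pool of the 3 ATP2A genes was made mostly of ATP2A2 in all libraries. The share of ATP2A1 in that pool was 8.11, 5.77, 5.99 and 5.9% in the shPROX1 libraries, against 19.7, 17, 15.9 and 15.7% in the control libraries. The groups did not overlap. The mean share was 6.44 ± 1.11% in shPROX1 and 17.0 ± 1.84% in control (SD, n = 4 each), a difference of -10.6 percentage points (exact two-sided permutation test, p = 0.0286, the smallest that 70 arrangements allow). With the length of the longest transcript in place of all exon bases the shares were 3.59 ± 0.643% in shPROX1 and 10.0 ± 1.18% in control, a difference of -6.43 points with the same p of the exact permutation test. Within a library, ATP2A1 counts relative to ATP2A2 counts stood at -5.43 ± 0.25 log2 units in shPROX1 and -3.84 ± 0.18 in control, a 3-fold lower ratio (difference -1.59, exact two-sided permutation p = 0.0286). This ratio needs no scaling between libraries. The summed level of the 3 ATP2A genes was 48.1 to 53.4 CPM per kb in shPROX1 and 44.1 to 48.1 CPM per kb in control, and was not tested.

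**Figure D2:**
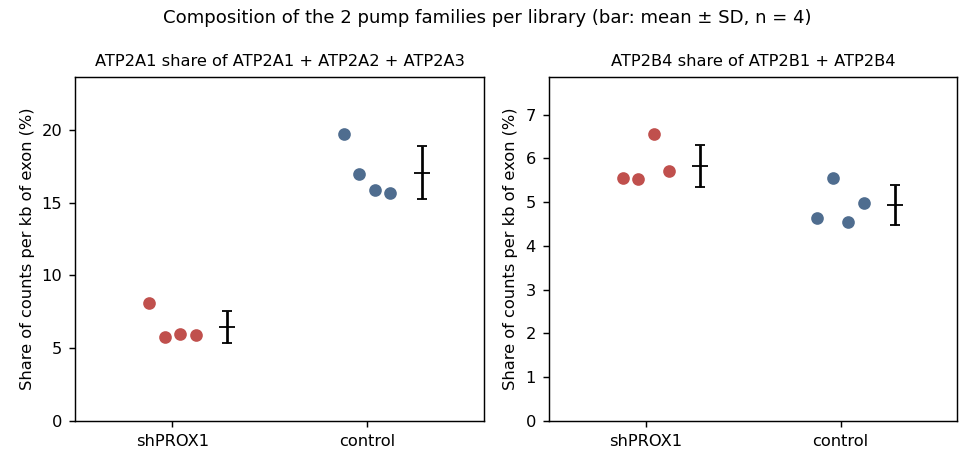
Share of counts per kb of exon (percent, linear axis from 0) that ATP2A1 takes of the 3 ATP2A genes (left panel) and ATP2B4 of ATP2B1 and ATP2B4 (right panel), in 4 shPROX1 (red, left) and 4 control libraries (blue, right), with mean ± SD. ATP2A1 takes 5.77 to 8.11% in shPROX1 and 15.7 to 19.7% in control, and the ATP2B4 shares of the groups meet at 5.54 and 5.55%.

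MRLN encodes myoregulin, a skeletal muscle micropeptide shown in mouse to inhibit SERCA (ENSG00000227877, minus strand of chromosome 10, 59736692 to 59756041). The shPROX1 libraries had 19, 24, 20 and 19 counts, against 32, 34, 34 and 47 counts in the control libraries. In CPM these were 4.42, 5.87, 5.34 and 4.42 in shPROX1 and 7.54, 8.38, 8.22 and 9.66 in control, with no overlap. MRLN fell (5.01 ± 0.719 CPM in shPROX1 and 8.45 ± 0.886 CPM in control, SD, n = 4 each; log2 change -0.74 ± 0.19, 95% interval -1.13 to -0.35, edgeR adjusted p = 0.00375). Relative to ATP2A1 counts of the same library, MRLN stood at -1.53 ± 0.36 log2 units in shPROX1 and -2.10 ± 0.23 in control. The difference of 0.56 did not pass (exact two-sided permutation p = 0.0571, n = 4 each), with ranges of -2.01 to -1.15 in shPROX1 and -2.38 to -1.83 in control that overlapped. Leaving out shPROX1 replicate 1, the library with the highest ATP2A1 level of its group, gave a difference of 0.72 (exact permutation p = 0.0286). Leaving out any other library gave 0.44 to 0.65 (exact permutation p of 0.0571 to 0.114).

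SLN encodes sarcolipin, the SERCA inhibitor of atria and of oxidative or developing muscle (minus strand of chromosome 11, 107707378 to 107719693). It had 2 counts in shPROX1 replicate 4, 1 count in control replicate 2 and 0 counts in the other 6 libraries. A difference was not detectable at this depth. PLN, which encodes the related inhibitor phospholamban of heart and slow muscle, had 0 counts in all 8 libraries (3 counts are 0.801 CPM in the smallest of them). Of the other small regulators searched, STRIT1, whose product activates SERCA in mouse, had 1 count in shPROX1 and 0 in control, and SMIM6 had 0 counts throughout. MRLN and C4orf3, a broadly expressed relative, were therefore the regulin genes above the filter, and C4orf3 stood at 43.9 ± 2.66 CPM in shPROX1 and 45.3 ± 2.92 CPM in control (SD, n = 4 each; log2 change -0.02 ± 0.08, edgeR adjusted p = 0.862).

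The calsequestrin genes were barely present. CASQ1, the form of fast skeletal muscle (plus strand of chromosome 1, 160190556 to 160201886), had 0, 0, 0 and 1 counts in the shPROX1 libraries, against 1, 2, 2 and 1 in the control libraries, all within the 3 counts that a count of 0 allows, and no fold is given. CASQ2, the cardiac and slow-muscle form (minus strand of chromosome 1, 115700007 to 115768781), had 8, 6, 2 and 8 counts in shPROX1 and 13, 4, 16 and 15 in control, or 1.43 ± 0.626 and 2.75 ± 1.23 CPM (SD, n = 4 each). The groups overlapped through control replicate 2, and the gene fell below the filter. With at least 1 CPM required in 4 libraries as the filter its log2 change was -0.88 ± 0.40 (edgeR adjusted p = 0.0959), and with no filter -0.88 ± 0.38 (adjusted p = 0.114, edgeR). When control replicate 2 was left out the gene passed the filter and was called (-1.15 ± 0.35, edgeR adjusted p = 0.0172), so its call rests on 1 library of 4 counts.

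ASPH encodes aspartate β-hydroxylase and, from other promoters and splice forms, the sarcoplasmic proteins junctin and junctate, of which junctin anchors calsequestrin at the release channel (minus strand of chromosome 8, 61500556 to 61714640). Counts per gene sum over these forms, so the change cannot be given to junctin. The libraries had 250, 238, 226 and 245 CPM in shPROX1, against 169, 206, 186 and 190 CPM in control, with no overlap. ASPH rose to 240 ± 10.5 CPM in shPROX1, against 188 ± 15.2 CPM in control (SD, n = 4 each; log2 change 0.38 ± 0.06, 95% interval 0.26 to 0.50, edgeR adjusted p = 1.65e-05). The antisense neighbour CLVS1, which covers 5.44% of the ASPH exon bases, had 1 count over the shPROX1 and 2 over the control libraries. TRDN, which encodes triadin, the partner of junctin, had 3, 1, 1 and 2 counts in shPROX1 and 1, 2, 2 and 7 in control and was not tested.

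The PMCA genes moved little. ATP2B1, the housekeeping pump of the plasma membrane (minus strand of chromosome 12, 89588049 to 89709300), had 642, 627, 610 and 622 CPM in the shPROX1 libraries, against 656, 676, 671 and 693 CPM in the control libraries. The groups did not overlap, yet the difference was small: 625 ± 13.3 CPM in shPROX1 and 674 ± 15.5 CPM in control, log2 change -0.08 ± 0.04, which did not pass the test (edgeR adjusted p = 0.0992). ATP2B4, the other PMCA gene above the filter (plus strand of chromosome 1, 203626561 to 203744081), had 38.6, 37.7, 43.8 and 38.6 CPM in shPROX1, against 32.7, 40.7, 32.7 and 37.2 CPM in control. These overlapped, and the log2 change of 0.17 ± 0.09 did not pass (95% interval -0.02 to 0.35; edgeR adjusted p = 0.151). ATP2B4 made up 5.84 ± 0.482% of the exon-scaled counts of the pair in shPROX1 and 4.93 ± 0.454% in control (SD, n = 4 each; difference 0.909 points, exact two-sided permutation p = 0.0571). Without control replicate 2 the difference was 1.12 points (exact permutation p = 0.0286). The ATP2B4 to ATP2B1 count ratio differed by 0.26 log2 units (-3.98 ± 0.12 in shPROX1 and -4.24 ± 0.14 in control, exact two-sided permutation p = 0.0571) and by 0.32 without control replicate 2 (exact permutation p = 0.0286). Leaving out any other library gave exact permutation p of 0.0571 to 0.0857 for the share and for the ratio. ATP2B2 and ATP2B3, PMCA genes known from neurons and other excitable cells, had 2 and 1 counts over the shPROX1 libraries and 0 and 3 over the control libraries.

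**Figure D3:**
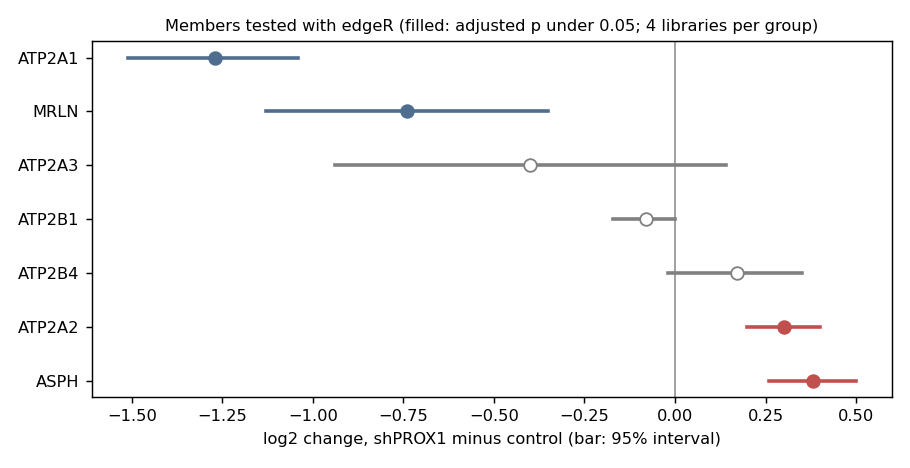
Log2 change of the 7 tested members, shPROX1 minus control (horizontal axis), with 95% intervals of the edgeR fit on 4 libraries per group. ATP2A1 (-1.27) and MRLN (-0.74) are called lower (blue, filled), ATP2A2 (0.30) and ASPH (0.38) higher (red, filled), and open grey points did not pass the test.

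Ordered by level per kb of exon, ATP2B1 (65.9 ± 1.4 CPM per kb in shPROX1, 71.0 ± 1.63 in control) and ATP2A2 (46.3 ± 2.58 and 38.1 ± 2.31) led in both groups. ASPH followed (12 ± 0.522 and 9.36 ± 0.759). In shPROX1 the next were ATP2B4 (4.08 ± 0.285 CPM per kb) and ATP2A1 (3.22 ± 0.518), whose ranges overlapped. In control ATP2A1 (7.94 ± 0.528 CPM per kb) overlapped ASPH and stood above ATP2B4 (3.68 ± 0.399). MRLN (1.7 ± 0.244 CPM per kb in shPROX1, 2.87 ± 0.301 in control) came sixth in each group, and CASQ2 and ATP2A3 overlapped each other in each. SLN and CASQ1 were lowest. By this level ATP2A1 ranked 8550 in shPROX1 and 5540 in control among 12376 tested genes with an annotated length, and ATP2A2 989 and 1200. Part of the order depends on length: per kb of the longest transcript ATP2A2 (112 ± 6.22) was above ATP2B1 (88.9 ± 1.89) in shPROX1 and overlapped it in control (91.9 ± 5.56 against 95.8 ± 2.21 CPM per kb), and MRLN overlapped ATP2A1 in control (9.41 ± 0.986 against 10.3 ± 0.684 CPM per kb).

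Of 72 further calcium-handling genes in 7 lists, 53 were tested, 18 were higher and 12 lower in shPROX1 (34.0% and 22.6%), with a median log2 change of 0.09. Among all tested genes 17.3% were higher and 17.9% lower, with a median of -0.01, and the counts per list below stand beside these shares. The count of lower genes was 7 with no filter on low counts, with 1 CPM required in 4 libraries, with DESeq2 and without shPROX1 replicate 1, and the calls of JSRP1, SRI and SMDT1 were lost under each of these. In the list of other pump regulators and luminal partners 3 of 5 tested genes were lower and 1 higher (median log2 change -0.17). SRL encodes sarcalumenin, a luminal protein that binds calcium and stabilises SERCA, and had 2.56, 3.18, 4 and 3.02 CPM in shPROX1, against 7.77, 9.12, 9.19 and 5.55 CPM in control. The groups were apart, and SRL fell by a log2 change of -1.27 ± 0.23 (edgeR adjusted p = 1.70e-04), the same size as for ATP2A1. HRC, the histidine-rich calcium-binding protein of the lumen, had 3.26, 4.16, 6.4 and 6.97 CPM in shPROX1, against 14.8, 7.64, 7.74 and 9.45 CPM in control, and fell (-0.91 ± 0.25, edgeR adjusted p = 0.00584). The cytosolic calcium sensor gene SRI (sorcin) was called lower by a small margin (-0.17 ± 0.07, edgeR adjusted p = 0.0491). That call was lost without shPROX1 replicate 1, 3 or 4 or control replicate 1 or 3 (-0.19 to -0.11), and with RLE factors or limma voom (-0.16 and -0.17). TMX1, a redox protein of the reticulum membrane that interacts with SERCA2, rose (0.25 ± 0.06, edgeR adjusted p = 0.00138).

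Among release channels and junction proteins, 2 of 7 tested genes were lower and 0 higher (median log2 change -0.03). RYR1, the release channel of skeletal muscle, had 145, 148, 151 and 158 CPM in shPROX1, against 198, 197, 215 and 223 CPM in control, with no overlap. It fell by a log2 change of -0.44 ± 0.05 (edgeR adjusted p = 6.24e-07). JSRP1, a junctional protein that binds calsequestrin, was just inside the threshold (-0.15 ± 0.06, edgeR adjusted p = 0.0486), and its call was lost when any library but shPROX1 replicate 3 was left out (-0.16 to -0.11), and with RLE factors or limma voom (-0.14 and -0.15). The inositol trisphosphate receptor ITPR1, the release channel of non-muscle cells, had 105 ± 8.66 CPM in shPROX1 and 107 ± 4.37 CPM in control (SD, n = 4 each; log2 change -0.01 ± 0.06, 95% interval -0.14 to 0.12).

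The largest change in these lists was that of an export gene. SLC8A1, the sodium-calcium exchanger of the plasma membrane, had 69.1, 77.1, 64.6 and 67.2 CPM in shPROX1, against 24, 23.7, 27.6 and 25.7 CPM in control. All shPROX1 libraries were above all control libraries, and SLC8A1 rose 2.8-fold (log2 change 1.48 ± 0.08, edgeR adjusted p = 1.70e-12). Its paralogue SLC8A3, the form known from skeletal muscle, stood at 4.58 ± 1.37 CPM in shPROX1 and 5.35 ± 0.656 CPM in control (SD, n = 4 each) and did not pass (-0.20 ± 0.23, edgeR adjusted p = 0.558; named after its values were seen). NPTN and BSG encode neuroplastin and basigin, subunits of PMCA pumps. NPTN fell to 77.4 ± 4.1 CPM in shPROX1, against 118 ± 3.62 CPM in control (log2 change -0.58 ± 0.06, edgeR adjusted p = 4.34e-08), and BSG did not pass (-0.06 ± 0.05). The Golgi pump gene ATP2C1 was called higher (0.18 ± 0.07, edgeR adjusted p = 0.0426), but without shPROX1 replicate 3 it was 0.10 and not called (edgeR adjusted p = 0.176). The call was also lost without shPROX1 replicate 1 or control replicate 1, 3 or 4 (0.15 to 0.19), and with DESeq2 (0.18, adjusted p = 0.0524). Other export genes thus counted 2 higher and 1 lower of 6 tested.

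**Figure D4:**
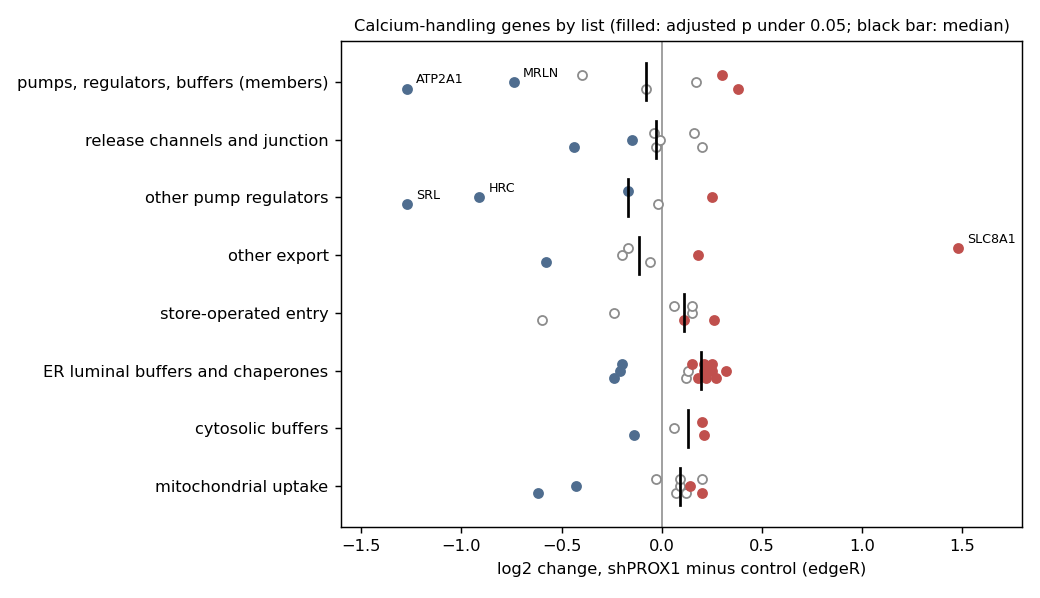
Log2 change of each tested calcium-handling gene, shPROX1 minus control (horizontal axis), by list, with filled red points for genes called higher, filled blue for lower, open grey for those that did not pass, and a black bar at each list's median. SLC8A1 (1.48) lies farthest to the right, ATP2A1 and SRL (both -1.27) farthest to the left, and the reticulum buffers centre on 0.20.

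Buffers of the general endoplasmic reticulum ran the other way from the muscle-specific luminal genes SRL and HRC. Of 14 measured, 9 were higher and 3 lower (median log2 change 0.20), beside 17.3% and 17.9% of all tested genes. CALR, the calcium-binding chaperone calreticulin, rose to 1012 ± 30.4 CPM in shPROX1, against 825 ± 50.3 CPM in control (SD, n = 4 each; log2 change 0.32 ± 0.04, edgeR adjusted p = 5.25e-06). Its membrane relative CANX (0.25 ± 0.03), the chaperone HSPA5 (0.27 ± 0.05) and the EF-hand protein CALU (0.25 ± 0.04) rose as well, while PDIA6 did not pass (0.12 ± 0.05, edgeR adjusted p = 0.0677) except without shPROX1 replicate 3 (0.17) or control replicate 1 (0.15), or with no filter on low counts (0.13). The 3 lower genes were RCN1 (-0.21 ± 0.05), NUCB1 (-0.20 ± 0.07) and NUCB2 (-0.24 ± 0.09, edgeR adjusted p = 0.0499), all EF-hand proteins of the secretory pathway, named after their values were seen.

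Store-operated entry genes counted 2 higher and 0 lower of 7 tested (median 0.11): the store sensor STIM2 (0.26 ± 0.08) and SARAF, which damps that entry (0.11 ± 0.04), were higher, and the channel gene ORAI2 did not pass (0.15 ± 0.07) except without shPROX1 replicate 1 (0.22). The SARAF call was lost without shPROX1 replicate 1, 2 or 4 or control replicate 3 or 4 (0.09 to 0.12), with upper-quartile factors (0.10) and with no filter on low counts (0.12). Among cytosolic calcium-binding genes, CALM2 (0.20 ± 0.05) and CALM3 (0.21 ± 0.06), which encode the calcium sensor calmodulin, were higher, and CETN2 did not pass (0.06 ± 0.11). PVALB, the parvalbumin of fast fibres, had 0 counts over the shPROX1 and 3 over the control libraries. Of 10 mitochondrial uptake genes 2 were higher and 2 lower (20% each, near the 17.3% and 17.9% of all tested genes, median 0.09). The uniporter gate MICU2 fell by a log2 change of -0.43 ± 0.07 (edgeR adjusted p = 3.61e-05), SMDT1, a uniporter subunit, was just inside the threshold (-0.62 ± 0.24, edgeR adjusted p = 0.0454), and the pore gene MCU (0.20 ± 0.07) and the outer membrane channel VDAC1 (0.14 ± 0.05) were higher. The MCU call was lost without shPROX1 replicate 1, 2 or 4 or control replicate 1 or 3 (0.14 to 0.19) and with DESeq2 (0.20), that of VDAC1 without shPROX1 replicate 1 (0.13) or 2 (0.11), and that of SMDT1 when any library but shPROX1 replicate 4 or control replicate 1 was left out (-0.68 to -0.47) and with limma voom (-0.62). VDAC3 did not pass (0.09 ± 0.05).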

How the data were processed

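The 8 total RNA libraries were made with a directional kit, per the labels' protocols. Each deposited file gives the raw counts of 1 library per gene, and 0 of its entries lack a gene name. In the submitters' processing notes, the tools listed are FastQC, HISAT2, HTSeq and DESeq2, with GRCh38 (hg38). The strand setting and the annotation used for counting are not given in the sources used here, and overlapping genes on opposite strands may share reads. The series' design calls the libraries biological replicates but ties none to a separate culture, so p-values measure the spread between these libraries.

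Members and lists were chosen with earlier results of these data known. Identifiers were matched to GENCODE 29 (58039 of 58302 genes, 10 of 10 members), which gave symbols, 1-based coordinates and exon lengths. Tests used edgeR 4.0.16 in R 4.3.3 (TMM, filterByExpr, quasi-likelihood, all 8 libraries, no covariate) with Benjamini-Hochberg adjustment over 12392 genes and a threshold of 0.05. SE is the absolute log2 change over the root of F. Ratios within a library (log2 of count + 0.5) and shares were compared by exact two-sided permutation. The test was checked on simulated data. Within groups, all 12 pairs of libraries had a chi-square above its degrees of freedom (1.19 to 6.34 times).

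Named genes were the members, PROX1 and, per list, up to 4 called genes of at least 1 CPM with the largest change and the most abundant gene not called, besides those said to be named after their values were seen. For ATP2A1 and ASPH, the called members of smallest p in each direction, the 5 genes with the most similar profile were also named. The alternatives tried were scaling by RLE or upper quartiles, 2 other filters, DESeq2 1.42.0, limma voom (limma 3.58.1), leaving out each library, a replicate block, transcript length and a pseudocount of 2. Results on some listed genes are not reported here.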

Additional observations from a re-analysis of the deposited data

Results flagged for a closer look

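In 6 of 86 groups of 4 libraries checked, 1 library lay far from the other 3 of its group, and chance alone gives about 1 in 20. In shPROX1 replicate 1 the share of ATP2A1 among the ATP2A genes was 8.11%, against 5.77 to 5.99% in the other 3 shPROX1 libraries, and ATP2A1 relative to ATP2A2 was -5.06 log2 units against -5.58 to -5.53. Both values still lay outside the control range. In shPROX1 replicate 3, ATP2B4 had 43.8 CPM against 37.7 to 38.6 CPM, the ATP2B4 share of the pair was 6.55% against 5.54 to 5.71%, and ATP2C1 had 164 CPM against 132 to 137 CPM. In control replicate 4, NPTN had 112 CPM against 119 to 120 CPM.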

How the results depend on the processing

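The calls of ATP2A1 (log2 change -1.39 to -1.22 over all alternatives), MRLN (-0.82 to -0.66), ATP2A2 (0.27 to 0.32), ASPH (0.33 to 0.43) and PROX1 (-1.15 to -0.99) kept their direction and side of the threshold in all 15 other fits, and ATP2A3, ATP2B1 and ATP2B4 stayed uncalled. The calcium-handling genes called lower numbered 7 with no filter on low counts, with 1 CPM in 4 libraries and with DESeq2, and 7 to 10 with a library left out (7 without shPROX1 replicate 1), against 12. They numbered 8 with limma voom or a replicate block, 9 with RLE factors and 12 with upper-quartile factors. Leaving out 1 library gave differences of 0.671 to 1.12 points for the ATP2B4 share, 0.20 to 0.32 for ATP2B4 minus ATP2B1 and 0.44 to 0.72 for MRLN minus ATP2A1, and moved the uncalled changes of ITPR1 (-0.05 to 0.04), C4orf3 (-0.05 to 0.03) and CETN2 (-0.07 to 0.13) across 0. The ATP2A1 share differed by -6.43 points with the longest transcript as length. For each of these the cause was not tested. Same-numbered libraries did not deviate together (r of -0.051 to 0.05 over 4 pairs, with 0 of 4 shPROX1 libraries closest to their own number). A replicate block called 4187 genes in place of 4364 and changed no call of a member, and among the other named calcium-handling genes it ended the calls of JSRP1 (-0.15, edgeR adjusted p = 0.0646), SRI (-0.17, adjusted p = 0.0577) and SARAF (0.11, adjusted p = 0.0563) and no other. An exact permutation within pairs (16 arrangements) cannot go below p = 0.125, the value given by the ATP2A1 share (-10.6 points) and by ATP2A1 minus ATP2A2 (-1.59). DESeq2 called 3483 genes. At these depths (3747090 to 4865161 counts) SLN, CASQ1 and PLN could not be compared.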

Other observations

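Over the 8 libraries and 9481 protein-coding genes of at least 10 CPM, the genes whose log2 CPM ran closest to ATP2A1 (Pearson r = 0.99 each, as a description, with the group difference shared by all of them) were TBC1D32 (log2 change -0.52 ± 0.06), EXD2 (-0.72 ± 0.11), NIPSNAP1 (-1.41 ± 0.09), KRT40 (-1.72 ± 0.17) and TSPAN33 (-1.43 ± 0.07). Those closest to ASPH (r of 0.98 to 0.99) were AIMP1 (0.32 ± 0.06), ENTPD7 (0.14 ± 0.07), RBL1 (0.33 ± 0.07), SFR1 (0.33 ± 0.11) and DNAJB4 (0.54 ± 0.07), of which ENTPD7 did not pass the test.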
